A study of Mus musculus with 2 samples.

Results

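Neutrophils were examined among CD45+ cells sorted from tumours of the mouse mesothelioma line AB1-HA. The control library is from animals treated with a control antibody and the anti-VEGF library from animals treated with an antibody against VEGF, the vascular endothelial growth factor that drives the growth of tumour vessels. Both groups carried this tumour line and went through the same dissociation, exclusion of propidium iodide-positive dead cells and sort, and both libraries were made with the 10x Genomics 3-prime chemistry, which counts transcripts by unique molecular identifiers (UMIs). The strain, age and number of the mice, the antibody doses and the time of sampling are not given in the sources used here. Each group has 1 library, so no difference between the groups has a replicate check and none was tested. The intervals given are 95% intervals that cover counting error only. They do not cover differences between cells, between mice or between library preparations. Intervals of levels and ratios treat UMIs as independent, although the UMIs of a gene can come mostly from 1 cell.

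Cells entered with 300 or more genes, 500 or more UMIs and no more than 10% of UMIs from mitochondrial genes. A cell was called a neutrophil when it had at least 1 UMI of at least 3 of the 6 genes S100a8, S100a9, Csf3r, G0s2, Retnlg and Cxcr2, C1qa, C1qb and C1qc together below 0.1% of its UMIs, and at most 2 UMIs of Col3a1 and Col1a2 together. The rule found 280 of the 18964 cells that passed the cell filter, 39 of 10805 in the control library and 241 of 8159 in the anti-VEGF library. The members were thus chosen by the measured UMIs of the 6 gate genes, the C1q genes and the collagen genes, whose values describe the choice and are not results. No doublet caller was run.

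Neutrophils are short-lived granulocytes that leave the marrow with granules already filled and enter tissue along chemokine gradients sensed by Cxcr2 and other receptors. In tissue they release chemokines and interleukin-1, take part in killing microbes through granule proteins and the NADPH oxidase, and respond to interferons and to low oxygen. In tumours they have been described in states that differ in age, in angiogenic factors and in the suppression of T cells. They hold little RNA, so single-cell libraries detect few of their genes.

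The neutrophils were 0.361% (exact binomial interval 0.257 to 0.493) of filtered cells in the control library and 2.95% (2.60 to 3.34) in the anti-VEGF library, a difference of 2.59 percentage points. Without gated cells above 10000 UMIs, described below, the shares were 0.324% (0.226 to 0.450) and 2.66% (2.32 to 3.03). The counting intervals did not overlap, and the spread between mice that would be needed to read the difference as one of treatment is not known. Neutrophil transcripts were also higher in the macrophages of the anti-VEGF library, cells gated on C1qa, C1qb and C1qc. In those macrophages S100a9 was at 25.6 CPM (UMIs of the gene scaled to a total of 1000000) in the control library and 130 CPM in the other, 5.05-fold (4.84 to 5.28). The part of such shared RNA in the neutrophil share was not tested. Inside the gate, 6, 8, 19 and 6 control cells had 3, 4, 5 and 6 of the genes, and the corresponding anti-VEGF counts were 42, 79, 92 and 28. Just outside it, 28 control and 87 anti-VEGF cells had 2 of the genes, with median depths of 23010.5 and 21509 UMIs. Another 65 and 185 cells were outside by the C1q limit alone, with median depths of 26915 and 30835 UMIs.

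The libraries held 11687 control and 8825 anti-VEGF barcodes with 233687412 and 213948867 UMIs. In all, 35 barcode sequences occurred in both libraries, 1 of them a neutrophil in one library, and none was gated in both. The median neutrophil had 2542 UMIs and 822 genes in the control library and 2309 UMIs and 725 genes in the anti-VEGF library. Median mitochondrial shares were 0.220% and 0.226%. Ptprc, which encodes the sorted surface protein CD45, had a UMI in 79.5% and 79.7% of the cells.

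The gated cells differed widely in depth. Cells of up to 10000 UMIs numbered 35 in the control library and 217 in the anti-VEGF library, and 4 and 24 cells were deeper. No control cell lay between 3328 and 11638 UMIs. Anti-VEGF cells ran on across 10000 UMIs, with no cell only between 9671 and 10288. Of them, 20 had over 3000 and up to 5000 UMIs, 9 up to 10000, 8 up to 20000 and 16 more. The 9 anti-VEGF cells above 5000 and up to 10000 UMIs thus had no control cells of like depth. The few deep cells held 50.2% and 57.4% of all UMIs of the gated cells, so sums over all gated cells weigh them heavily. In cells of up to 10000 UMIs the gate genes took a median of 8.65% of a control cell's UMIs and 7.93% of an anti-VEGF cell's, against 0.507% and 0.254% in the deep cells. The limit of 10000 UMIs was chosen with results of these data known. The plot of depth against gate genes marks this limit.

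**Figure D1:**
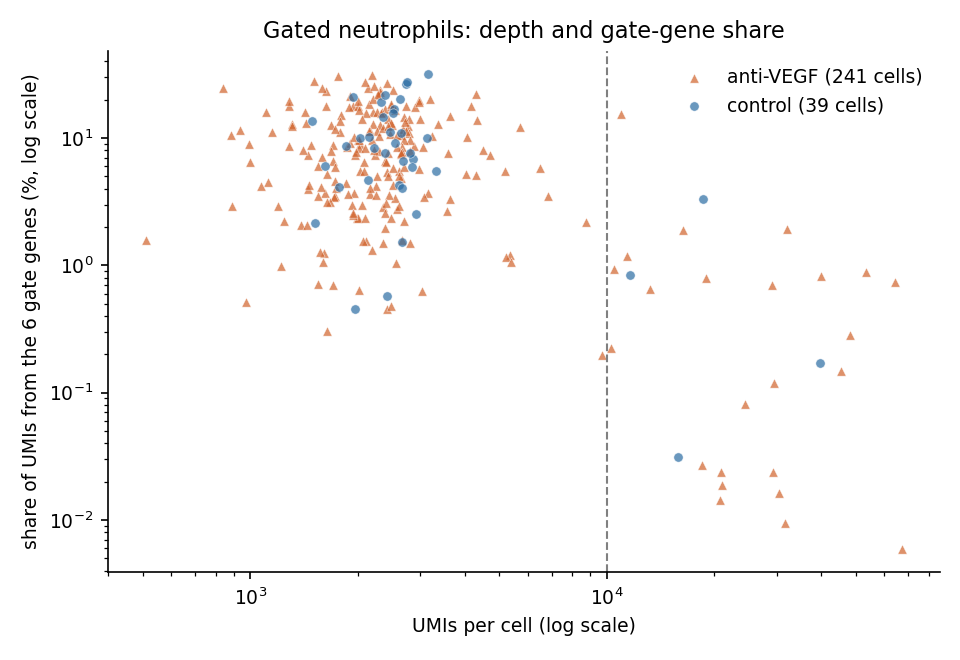
Each point is a gated neutrophil of the control or anti-VEGF library, with its total UMIs on the x axis (log scale) and the percentage of its UMIs in the 6 gate genes on the y axis. The dashed line marks 10000 UMIs, above which 4 control and 24 anti-VEGF cells lie, most of them with low gate-gene shares.

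Markers of other myeloid cells moved with this depth. The osteoclast-like list (Acp5, Ctsk, Mmp9 and 4 others) summed to 1246 CPM in the control and 885 CPM in the anti-VEGF cells of up to 10000 UMIs, and to 7238 and 16997 CPM in the deep cells, with all 7 of its 7 genes detected in the deep anti-VEGF cells. The 11 macrophage markers other than C1q summed to 987 and 922 CPM in cells of up to 10000 UMIs and to 4907 and 3187 CPM in the deep cells. Their sum would be reached if 7.75% of the control and 9.61% of the anti-VEGF UMIs in cells of up to 10000 UMIs came from macrophages, and 23.2% and 23.1% of those in all gated cells. Over all filtered cells the osteoclast-like list was at 5469 and 5004 CPM, and the 11 macrophage markers were at 7073 and 5020 CPM. In the deep cells the label neutrophil thus rests on the gate rule alone and is weak in many of them. The lower quartile of the gate-gene share was 0.136% in control and 0.0240% in anti-VEGF deep cells. In cells of up to 10000 UMIs it was 5.08% and 3.53%. Macrophage and osteoclast-like markers of the deep cells were higher than in cells of up to 10000 UMIs, and their osteoclast-like list was also above that of all filtered cells. Gene lists are therefore given for all gated cells and for those of up to 10000 UMIs, called shallow neutrophils here. Single genes are given for the shallow neutrophils, with the value over all gated cells where the direction turned or the ratio moved by over 1.5 times.

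Markers of lymphocytes and eosinophils gave few UMIs in the shallow neutrophils, while dendritic and monocyte list genes were detected in many cells. The eosinophil list of 7 genes had 0 control and 6 anti-VEGF UMIs, with Epx and Prg2 at 0. The T cell list had 4 and 38 UMIs, the NK list 3 and 5, and the B and plasma cell list 0 and 1. T cell UMIs were in 11.4% and 12.4% of shallow neutrophils, against 5.89% and 4.71% of all filtered cells. The level of the T cell list was 47.0 and 73.3 CPM, against 23.9 and 19.6 CPM in all filtered cells. Among mast cell and basophil markers, Hdc, which neutrophils also express, gave 265 of 265 control and 1318 of 1322 anti-VEGF UMIs, the others being 3 of Cpa3 and 1 of Tpsb2. The dendritic list was at 494 and 1828 CPM, with a UMI in 51.4% and 49.3% of cells, carried by H2-Aa, H2-Ab1 and Cd74, and its other 8 genes were at 0 in both libraries. The monocyte list was at 364 and 731 CPM, with a UMI in 45.7% and 37.8% of cells. The part of these cells' RNA in the differences below was not tested.

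Genes were compared by the ratio of anti-VEGF to control CPM, from UMIs summed over the cells of each library. Log2 ratios carry a pseudocount of 10 CPM, and ratios and their intervals carry none. Of 3249 genes with at least 50 UMIs over all gated cells, 180 (5.54%) were at least 2-fold higher in the anti-VEGF library and 61 (1.88%) at least 2-fold lower. With the minimum of 30 UMIs used for gene lists, the counts were 337 (7.35%) and 106 (2.31%) of 4588. In the shallow neutrophils they were 103 (7.48%) and 32 (2.32%) of 1377, and with 30 UMIs 185 (9.18%) and 68 (3.37%) of 2015. Among all genes with 30 UMIs, 51.2% were above 0 in all gated cells and 49.7% in the shallow ones, the shares beside which list counts stand. The median log2 ratio of all genes was 0.01 in all gated cells and -0.00 in the shallow ones. Scaling by TMM, which assumes that most genes do not differ, moved it to 0.13 and 0.26. A list near 0 can therefore take either sign, and lists are read here against the median of all genes.

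Neutrophil identity genes had a list median near that of all genes, while single genes differed. Of 21 identity genes, among them the gate gene Csf3r, 18 were measured in both sets of cells. In the shallow neutrophils 9 were above and 9 below 0, with a median log2 ratio of 0.02, and in all gated cells 6 were above and 12 below, with a median of -0.09. Without Csf3r, whose UMIs helped choose the cells, the medians were 0.04 and -0.07. Clec4d and Clec4e, C-type lectin receptors, had ratios of 1.08 (0.941 to 1.24) and 0.999 (0.869 to 1.15) in the shallow neutrophils, and Clec4d of 0.993 (0.869 to 1.14) in all gated cells. Il1r2, the decoy receptor that binds interleukin-1 without signalling, was at 4971 CPM in the control and 2741 CPM in the anti-VEGF shallow neutrophils. That was 0.551-fold (0.494 to 0.616), and 0.476-fold (0.429 to 0.529) in all gated cells. Acod1, which makes itaconate, was at 2432 and 3294 CPM, 1.35-fold (1.17 to 1.57). Ly6g, the classical surface marker of mouse neutrophils, had 7 control UMIs, of which 85.7% were in 1 cell, and 4 anti-VEGF UMIs. Among gate genes, given only as a description, S100a8, S100a9, Csf3r and G0s2 had ratios of 0.755, 0.862, 0.751 and 0.777, and Retnlg and Cxcr2 0.848 and 0.985.

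Transcripts of granule proteins made early in the marrow were almost absent. Mpo, myeloperoxidase, had 0 and 1 UMI. The measured members of the primary granule list were Srgn, the proteoglycan that packs granule proteins, and lysosomal enzymes. The list had medians of 0.44 in all gated cells, with 4 of 5 measured genes above 0, and 0.54 in the shallow ones, with 3 of 4. Srgn stood at 20940 and 20824 CPM, a ratio of 0.994 (0.946 to 1.05). Of 14 secondary and tertiary granule genes, 8 were measured, 3 above and 5 below 0, with medians of -0.14 in all gated cells and -0.26 in the shallow ones. Pglyrp1, a peptidoglycan-binding granule protein, was at 588 and 299 CPM in the shallow neutrophils, 0.509-fold (0.368 to 0.715). Lcn2, which binds bacterial siderophores, was at 364 and 609 CPM, 1.67-fold (1.16 to 2.50), in 8 of 35 and 67 of 217 cells. Mmp9, gelatinase B, was 0.576-fold (0.444 to 0.754) in the shallow neutrophils and 1.97-fold (1.69 to 2.31) in all gated cells. It is also in the osteoclast-like list, which was high in the deep cells. The recent-arrival list without the gate genes Retnlg and Cxcr2 had medians of -0.03 in all gated cells, with 4 of 8 measured genes above 0, and -0.39 in the shallow ones, with 3 of 8.

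The NADPH oxidase and adhesion lists lay somewhat below the median of all genes. Oxidase genes had medians of -0.23 over 7 genes in all gated cells and -0.24 over 6 in the shallow ones. Rac2, the small GTPase of the oxidase complex, was at 870 and 486 CPM in the shallow neutrophils, 0.559-fold (0.430 to 0.734), while the intervals of Cyba, Ncf1 and Ncf4 included 1. Adhesion and migration genes had medians of -0.19 and -0.26, with 2 of 9 above 0 in the shallow neutrophils. Cd44, the hyaluronan receptor, was at 2115 and 1535 CPM, 0.726-fold (0.617 to 0.858), and Cd9, a tetraspanin, at 4571 and 3163 CPM, 0.692-fold (0.619 to 0.775). With TMM scaling of the shallow neutrophils, the medians of the oxidase and adhesion lists were 0.04 and 0.01, so their sign depended on the scaling. Both stayed below the 0.26 of all genes there. Of 22 alternatives, the adhesion median was below 0 in 18 and the oxidase median in 19. With at least 4 of 6 gate genes the adhesion median was 0.04, above the -0.03 of all genes. With at least 2 the values were 0.07 and -0.05, and with at most 5% mitochondrial UMIs 0.02 and -0.02. After thinning to 500 UMIs the oxidase median was 0.19, above the 0.05 of all genes.

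Receptors for chemoattractants had medians near 0, at -0.11 over 11 genes in all gated cells and -0.03 over 10 in the shallow ones, or -0.10 and -0.05 without the gate gene Cxcr2. Cxcr4, the receptor for Cxcl12, had a ratio of 1.07 (0.780 to 1.51) in the shallow neutrophils and 0.931 (0.696 to 1.27) in all gated cells. C5ar1, the complement C5a receptor, had a ratio of 0.967 (0.756 to 1.25). Hcar2, a receptor for hydroxycarboxylic acids, was higher in the anti-VEGF library, at 1481 and 3140 CPM, 2.12-fold (1.77 to 2.56). It was detected in 24 of 35 and 175 of 217 shallow neutrophils. Ccrl2, which binds chemerin, was at 5499 and 7958 CPM, 1.45-fold (1.31 to 1.60).

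Chemokines that attract T cells, monocytes and further neutrophils differed unequally. Ccl4 was at 1187 CPM in the control and 6476 CPM in the anti-VEGF shallow neutrophils, 5.46-fold (4.48 to 6.72), and 3.05-fold (2.61 to 3.58) in all gated cells. Its UMIs came from 15 of 35 and 127 of 217 shallow neutrophils, and the highest single cells held 19.8% and 9.11% of them. Ccl3, a chemokine closely related to Ccl4, was at 3455 and 6166 CPM, 1.78-fold (1.58 to 2.02). Cxcl3, a ligand of Cxcr2, was at 552 and 2216 CPM, 4.01-fold (3.0 to 5.49), in 8 and 82 cells, with 42.6% of the control UMIs in 1 cell.

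The abundant inflammatory transcripts hardly differed. Cxcl2, another Cxcr2 ligand, was at 30846 and 32867 CPM in the shallow neutrophils, a ratio of 1.07 (1.02 to 1.11). Il1b, interleukin-1 beta, was at 13173 and 14330 CPM, 1.09 (1.02 to 1.16), and in all gated cells both ratios were below 1, at 0.972 and 0.926. Il1a was at 740 and 492 CPM, 0.664-fold (0.502 to 0.890), with 46.0% of the control UMIs in 1 cell. Cxcl10, an interferon-induced chemokine, was 1.99-fold (1.34 to 3.06), but 96.3% of its 27 control UMIs were in 1 cell. Over the whole list of 19 secreted chemokines and cytokines, 17 were measured and 14 were above 0 in the shallow neutrophils, with a median of 0.39. In all gated cells 11 of 17 were above 0, with a median of 0.11. In both sets of cells 3 of 17 were at least 2-fold higher, beside 9.18% of all genes in the shallow neutrophils and 7.35% in all gated cells.

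Interferon-induced genes were the list that stood highest above the median of all genes in both sets of cells, and the promoters of some of them are shown first. The stretches of Rsad2, Gbp2b, Igtp and Ifi47 are shown as examples of interferon-response genes among the 12 highest ratios of the shallow neutrophils. Cmpk2 and Irf1, also among those 12, are not shown. They are the 150 bases before the transcription start in RefSeq's annotation of GRCm38.p6, read 5′ to 3′ on the gene's strand: chr12:26456453-26456602, minus strand, for Rsad2, chr3:142594697-142594846, plus strand, for Gbp2b, chr11:58199406-58199555, plus strand, for Igtp and chr11:49076437-49076586, plus strand, for Ifi47. Capitals mark matches to the core of the interferon-stimulated response element, 2 copies of GAAA separated by any 2 bases and searched on both strands, and to the gamma-activated sequence, TTCNNNGAA, which reads the same on both.
Rsad2: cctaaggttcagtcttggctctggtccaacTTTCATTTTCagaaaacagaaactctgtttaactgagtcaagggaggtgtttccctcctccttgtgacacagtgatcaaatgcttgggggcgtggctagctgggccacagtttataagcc
Gbp2b: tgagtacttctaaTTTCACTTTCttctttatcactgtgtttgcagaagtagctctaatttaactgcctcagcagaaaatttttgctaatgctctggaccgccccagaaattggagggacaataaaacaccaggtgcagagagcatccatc
Igtp: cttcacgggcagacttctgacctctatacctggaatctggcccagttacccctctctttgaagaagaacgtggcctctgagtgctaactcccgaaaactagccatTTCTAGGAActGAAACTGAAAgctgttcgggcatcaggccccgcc
Ifi47: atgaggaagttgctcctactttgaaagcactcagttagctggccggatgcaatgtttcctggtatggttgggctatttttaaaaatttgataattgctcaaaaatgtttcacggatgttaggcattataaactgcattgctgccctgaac
Rsad2 matched the response element core on the reverse strand as TTTCATTTTC, 120 to 111 bases before the start, and Gbp2b as TTTCACTTTC, 137 to 128 bases before it. Igtp held a gamma-activated sequence, TTCTAGGAA, 45 to 37 bases before the start, and the response element core GAAACTGAAA at 34 to 25. The stretch of Ifi47 held neither set of letters.

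Searched over the 250 bases before the start, the response element core occurred in 936 of 27025 genes with a promoter in the RefSeq table (3.46%). It occurred in 7 of the 15 interferon genes that matched the table, in 3 of the 10 matched among the 12 highest genes of the shallow neutrophils and in 0 of the 10 matched among the 12 lowest. The gamma-activated sequence occurred in 2197 genes (8.13%), in 2 of 15 interferon genes and in 2 of 10 of both the highest and the lowest genes. Among the highest genes, the core occurred only in Rsad2, Gbp2b and Igtp, all shown above. Cmpk2 and Irf1, not shown, had no core. Cmpk2 had no gamma-activated sequence either, and Irf1 had 1. The 2 motifs do not share letters in the Igtp stretch. A match describes the sequence, and no binding was measured.

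Of 20 interferon genes, 19 were found and 15 measured in the shallow neutrophils. Of those, 14 were above 0 and 10 at least 2-fold higher, with a median log2 ratio of 1.10. In all gated cells 15 of 16 were above 0 and 7 at least 2-fold higher, with a median of 0.96. Genes without a control UMI enter these medians and counts through the pseudocount. Leaving them out, 8 and 6 genes were at least 2-fold higher in the shallow neutrophils and in all gated cells. Of all genes with 30 UMIs, such genes included, 9.18% and 7.35% were at least 2-fold higher. With genes lacking a control UMI at their bound against 3 control UMIs, the medians were 1.07 and 0.96.

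Rsad2, which encodes the antiviral enzyme viperin, was at 212 CPM (18 UMIs) in the control and 1811 CPM (939 UMIs) in the anti-VEGF shallow neutrophils. The ratio was 8.56 (5.39 to 14.5), and 8.12 (5.11 to 13.8) in all gated cells. It was detected in 4 of 35 control and 84 of 217 anti-VEGF cells, and 61.1% of the control UMIs were in 1 cell. Ifi47, an interferon-induced GTPase of the IRG family that acts against intracellular pathogens, had 2 control and 178 anti-VEGF UMIs, 14.6-fold (3.98 to 122), and was 8.08-fold (3.11 to 29.9) in all gated cells. Cmpk2, a nucleotide kinase beside Rsad2 in the interferon response, had 0 and 50 UMIs, at least 2.74-fold higher against a floor of 3 control UMIs over the group.

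The more abundant members had smaller ratios and narrower intervals. Isg15, a ubiquitin-like modifier, was at 1551 and 2334 CPM, 1.5-fold (1.26 to 1.81), in 24 of 35 and 164 of 217 cells. Ifitm3, which blocks virus entry, was at 670 and 1796 CPM, 2.68-fold (2.05 to 3.57). Irf7, the transcription factor that amplifies type I interferon, was at 129 and 272 CPM, 2.10-fold (1.14 to 4.31). Isg20, an RNA exonuclease, was 2.15-fold (1.33 to 3.69) and Ifit1, which binds foreign RNA, 4.83-fold (2.02 to 15.1). Oasl2 was the member below 0, with 9 and 25 UMIs and a ratio of 0.456 (0.206 to 1.11). Ifit3 and Ifit3b are near-identical copies, so their counts of 4 and 30 and of 2 and 22 UMIs are uncertain.

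Among the highest genes were some outside the list that are known to respond to interferon-gamma. They were picked for their high ratios in these data, so those ratios are no separate support. Their intervals do not allow for that choice. Gbp2b, a guanylate-binding protein, had 3 control and 237 anti-VEGF UMIs in the shallow neutrophils, 13-fold (4.38 to 63.3), and 8.94-fold (3.79 to 27.7) in all gated cells. Irf1, a transcription factor induced by interferon, had 2 and 117 UMIs, 9.60-fold (2.60 to 80.2), and was 5.51-fold (2.32 to 17.2) in all gated cells. Igtp, another IRG GTPase, had 2 and 86 UMIs, 7.06-fold (1.90 to 59.2). In the MHC class I list, 8 of 10 measured genes were above 0 in the shallow neutrophils, with a median of 0.56, and 9 of 11 in all gated cells, with a median of 0.18. B2m, the light chain of MHC class I, was at 1657 and 2081 CPM, 1.26-fold (1.05 to 1.51), while the heavy chains H2-K1 and H2-D1 had ratios of 0.882 (0.720 to 1.09) and 1.00 (0.866 to 1.16).

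**Figure D2:**
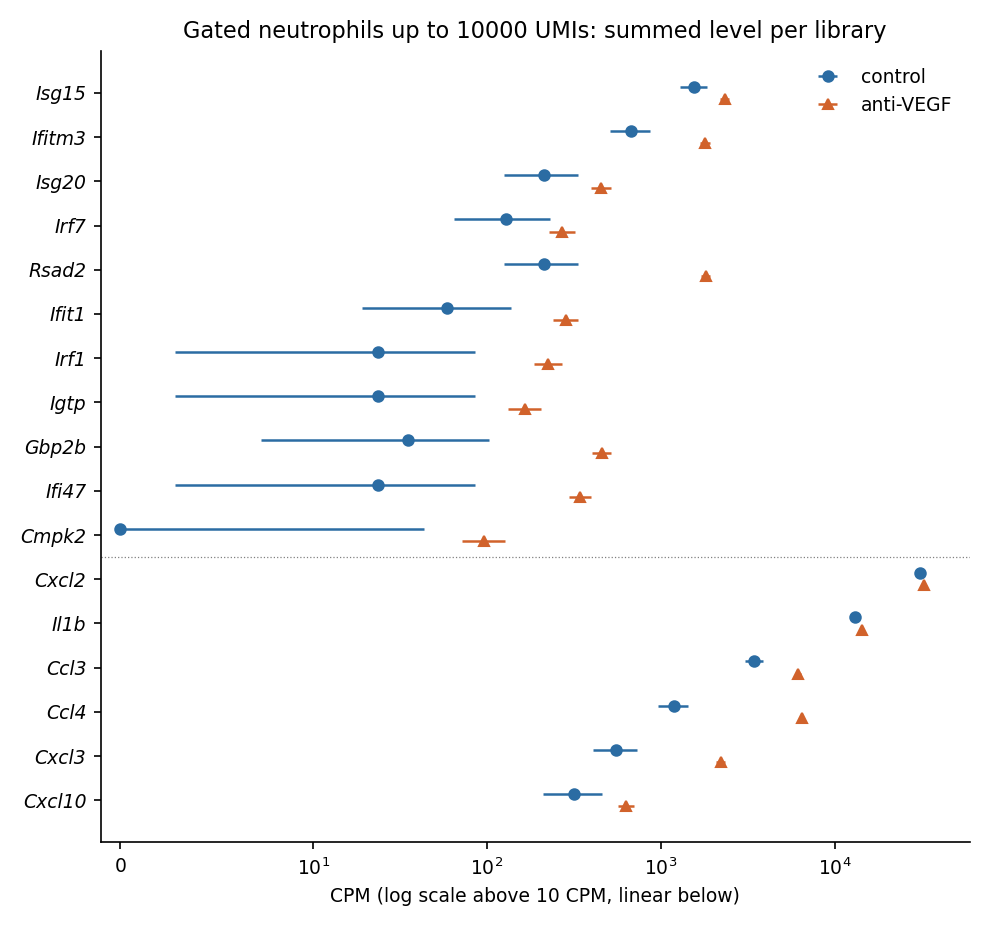
Level of 17 genes in shallow neutrophils (up to 10000 UMIs) of the control library (35 cells) and the anti-VEGF library (217 cells), in CPM on a log axis, with exact Poisson intervals that cover counting error only. Rsad2 is at 212 and 1811 CPM, Ccl4 at 1187 and 6476 CPM, and Cxcl2 and Il1b are close together in both libraries.

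Several hypoxia genes were higher in the anti-VEGF neutrophils. In the shallow neutrophils 14 of 15 measured genes were above 0 and 4 at least 2-fold higher, with a median of 0.64. In all gated cells 17 of 17 were above 0 and 4 at least 2-fold higher, with a median of 0.48. Of all genes with 30 UMIs, 9.18% and 7.35% were at least 2-fold higher. Bnip3, which marks mitochondria for removal, was at 212 and 453 CPM in the shallow neutrophils, 2.14-fold (1.33 to 3.68). P4ha1, a subunit of collagen prolyl hydroxylase, was at 47.0 and 266 CPM, 5.66-fold (2.16 to 21.1), and 2.21-fold (1.29 to 4.11) in all gated cells. Ndrg1, a classical hypoxia-induced gene, had 3 and 73 UMIs, 3.99-fold (1.31 to 19.8), and was 7.14-fold (3.02 to 22.2) in all gated cells. Slc2a1, a glucose transporter, was at 494 and 739 CPM, 1.5-fold (1.09 to 2.11). Hif1a, the oxygen-regulated transcription factor itself, had a ratio of 1.23 (0.846 to 1.86).

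Glycolysis genes had medians of 0.58 in all gated cells and 0.29 in the shallow ones, above 0 in 15 and 14 of 17 measured genes. The ratio of Pgk1 was 1.16 (0.844 to 1.62) in the shallow neutrophils and 2.17 (1.73 to 2.76) in all gated cells, so it was larger with the deep cells included. Slc2a3, the glucose transporter typical of leukocytes, went the other way, at 435 and 237 CPM, 0.546-fold (0.375 to 0.811), and 0.322-fold (0.235 to 0.444) in all gated cells. Fth1, the ferritin heavy chain that stores iron, was at 38660 and 60366 CPM, 1.56-fold (1.51 to 1.62), and Ftl1, the light chain, at 12773 and 14804 CPM, 1.16-fold (1.09 to 1.24). They belong to the autophagy and lysosome list, of which 12 of 13 measured genes were above 0 in both sets of cells, with medians of 0.44 and 0.40.

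The target of the antibody was itself expressed at a low level. Vegfa was at 106 and 218 CPM in the shallow neutrophils, from 9 and 113 UMIs, 2.06-fold (1.05 to 4.62), and in all gated cells the ratio was 1.07 (0.737 to 1.62). The VEGF receptors were barely detected, with 5 control and 5 anti-VEGF UMIs of Flt1 and 0 and 5 of Kdr over all gated cells, and the shallow neutrophils had none of Kdr. A count of 0 in 35 cells holds little information at this depth.

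NF-kB response genes had medians of 0.23 in all gated cells and 0.26 in the shallow ones, with 14 of 18 and 12 of 16 above 0. Tnfaip3, an inhibitor of NF-kB signalling, was at 176 and 382 CPM, 2.17-fold (1.28 to 3.94), and Nfkbia, which retains NF-kB in the cytoplasm, at 4324 and 5082 CPM, 1.18-fold (1.05 to 1.31). Immediate early genes lay below the median of all genes, at -0.27 and -0.13, with 5 of 15 above 0 in both sets of cells. With TMM scaling of the shallow neutrophils the latter was 0.15. Egr1 was at 2808 and 1715 CPM in the shallow neutrophils, 0.611-fold (0.529 to 0.707), and Btg2, an antiproliferative gene, at 3772 and 2258 CPM, 0.599-fold (0.529 to 0.680). Klf2 was 0.621-fold (0.516 to 0.752), while Dusp1, a phosphatase of MAP kinases, was at 2432 and 3547 CPM, 1.46-fold (1.26 to 1.69).

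Survival genes had medians of 0.02 in all gated cells and -0.03 in the shallow ones. Mcl1, on which neutrophil survival depends, was at 4477 and 4692 CPM, a ratio of 1.05 (0.940 to 1.17) in the shallow neutrophils and 0.852 (0.774 to 0.938) in all gated cells. The near-identical copies Bcl2a1a, Bcl2a1b and Bcl2a1d had ratios of 0.461, 0.638 and 0.742, which are uncertain because reads can be split among them. The suppressor list without the gate genes S100a8 and S100a9 had medians of 0.29 in all gated cells, with 7 of 12 measured genes above 0, and 0.01 in the shallow ones, with 6 of 12. In it Arg1, the arginine-degrading enzyme, was 11.1-fold (5.58 to 25.7) in all gated cells and 1.74-fold (0.801 to 4.47) in the shallow ones. One anti-VEGF cell held 55.4% of all its UMIs, and the levels expected from macrophage RNA were 92.1% and 154% of those observed in the shallow neutrophils. Cebpb, a granulocyte transcription factor, was at 15617 and 11304 CPM, 0.724-fold (0.682 to 0.769). Heat-shock genes had medians of 0.09 in all gated cells, with 8 of 12 above 0, and 0.35 in the shallow ones, with 6 of 9. The near-identical copies Hspa1a and Hspa1b had 4 and 2 control and 174 and 193 anti-VEGF UMIs in the shallow neutrophils, from 13 and 17 anti-VEGF cells. In all gated cells Hspa1a turned to 0.896-fold (0.698 to 1.17) and Hspa1b was 1.40-fold (1.08 to 1.83), with 83.3% and 90.9% of their control UMIs in 1 cell. For the tumour neutrophil list, drawn from genes described in tumour-infiltrating neutrophils, the medians were 0.27 and 0.18. Cd274, which encodes the checkpoint ligand PD-L1, was at 400 and 563 CPM, 1.41-fold (0.986 to 2.07), and Siglecf had 1 and 3 UMIs.

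**Figure D3:**
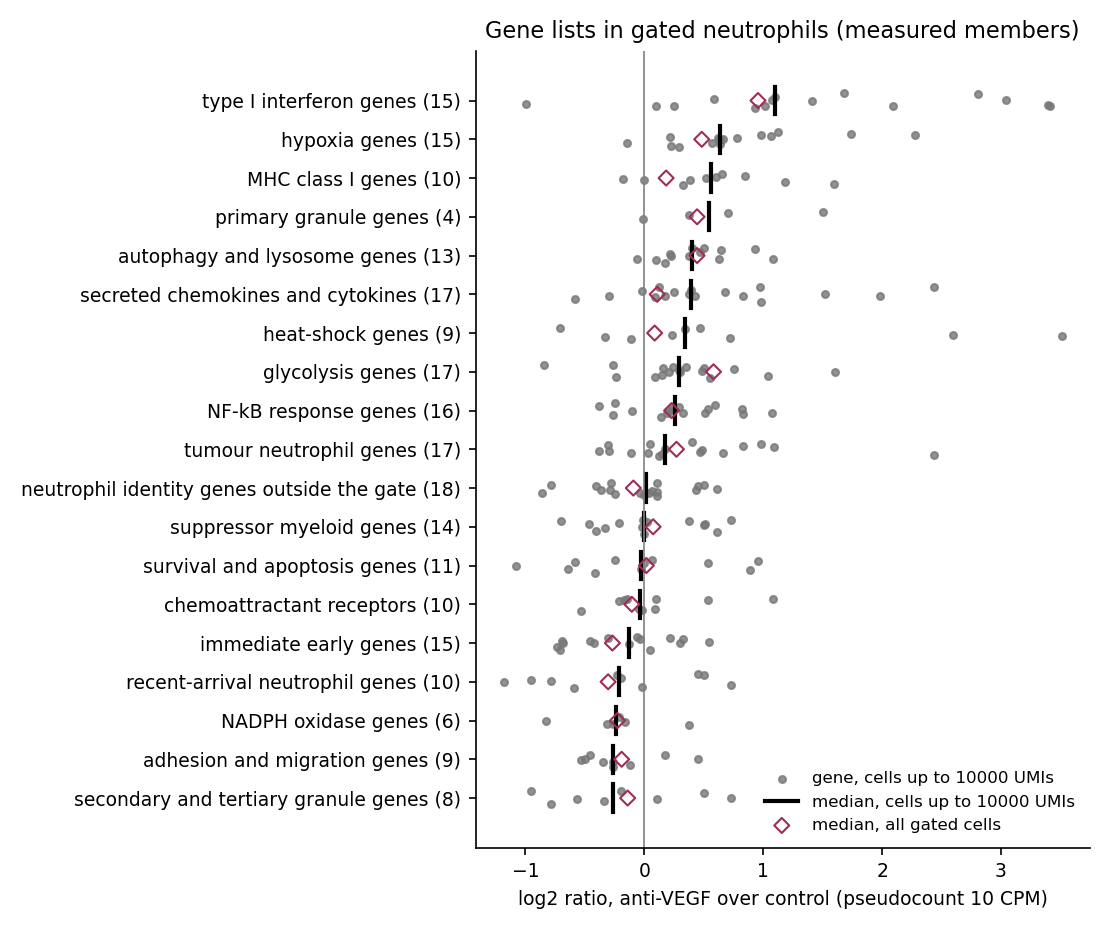
Log2 ratio of anti-VEGF to control CPM for the measured members of each gene list in shallow neutrophils (points), with the list median (bar) and the median over all gated cells (diamond), gate genes included where a list holds them. The type I interferon list has the highest median among the lists of at least 5 measured members, 1.10 in the shallow neutrophils and 0.96 in all gated cells, and the median of all genes is near 0.

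The rankings of single genes depended on the deep cells. Of the 12 highest genes, 4 were shared by the rankings of all gated and shallow neutrophils, namely Rsad2, Gbp2b, Ifi47 and Cmpk2, and of the 12 lowest only Ltb was. Ltb, the lymphotoxin beta chain, was at 529 and 195 CPM in the shallow neutrophils, 0.368-fold (0.257 to 0.536), and 0.391-fold (0.282 to 0.550) in all gated cells. Among the other low genes of the shallow neutrophils were Cyth4 at 0.373-fold (0.25 to 0.564), Clec5a, a DAP12-coupled receptor, at 0.419-fold (0.245 to 0.741), and Inhba, the activin A subunit, at 0.433-fold (0.292 to 0.655). In all gated cells 1 control cell held 76.2% of the control UMIs of Stmn1, 77.3% of Rcc2 and 78.6% of Prmt1, all among the 12 lowest. The highest ranks of the shallow neutrophils also held Tceal9, with 0 and 58 UMIs, at least 3.17-fold higher, and 1.76-fold (0.858 to 4.18) in all gated cells. They held H2-Ab1 too, an MHC class II gene with 51.6% of its anti-VEGF UMIs in 1 cell, which turned to 0.686-fold (0.563 to 0.842) in all gated cells, where 1 control cell held 98.3% of the control UMIs.

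Neutrophils varied widely within each library. The interferon list took a median of 0.170% of a control shallow neutrophil's UMIs (quartiles 0.0894 and 0.432) and 0.377% of an anti-VEGF one's (0.153 and 0.881), with maxima of 1.57% and 8.82%. The chemokine and cytokine list took medians of 3.88% and 5.42%. The ranges of the libraries overlapped for both lists. Medians of the hypoxia list were 0.269% and 0.305%, and of the tumour neutrophil list 1.06% and 1.53%.

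**Figure D4:**
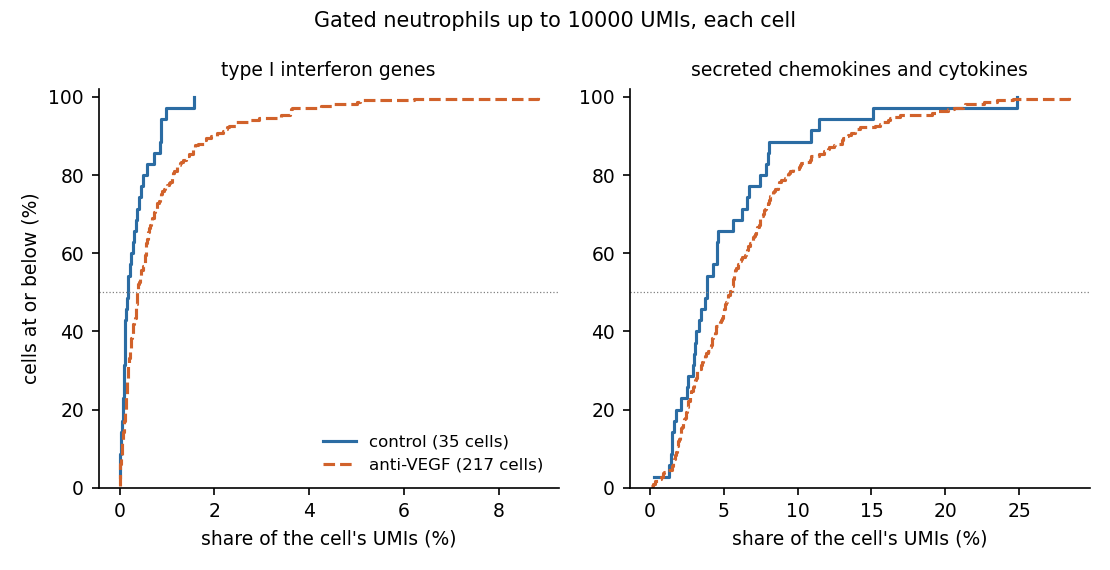
Cumulative share of shallow neutrophils (y axis) at or below a given percentage of the cell's UMIs in the interferon list and in the chemokine and cytokine list (x axes), for 35 control and 217 anti-VEGF cells. The medians are 0.170% and 0.377% for the interferon list and 3.88% and 5.42% for the chemokine and cytokine list.

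To compare detection at equal depth, each shallow neutrophil was thinned to 1500 UMIs, which left 34 of 35 control and 188 of 217 anti-VEGF cells. Rsad2 had a UMI in 8.82% (1.86 to 23.7) and 34.6% (27.8 to 41.8) of these cells, and in 2.07% and 2.97% of macrophages thinned alike. Gbp2b had one in 0 of 34 and in 24.5% (18.5 to 31.3), with 5.98% and 7.90% in macrophages, and the interval for the 0 reached 10.3%. Ccl4 had one in 29.4% (15.1 to 47.5) and 59.6% (52.2 to 66.7), with 28.2% and 22.8% in macrophages. For Isg15 the shares were closer, at 64.7% (46.5 to 80.3) and 69.7% (62.6 to 76.2). At least 3 interferon genes were detected in 12 of 34 control cells (35.3%) and in 101 of 188 anti-VEGF cells (53.7%), and at least 5 in 11.8% and 28.7%.

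Detection of some genes overlapped within anti-VEGF cells. Gbp2b had a UMI in 73.2% of thinned anti-VEGF cells with Ifi47 and in 10.9% of those without it. Ifi47 had one in 40.0% of cells with Rsad2 and 12.2% of those without it. Ccl4 was less divided by Rsad2, with 64.6% and 56.9%. Depth was equal in these counts, and the cells come from 1 library and are not replicates.

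Macrophages and monocyte-like cells of the same libraries showed smaller values for several of these genes and similar ones for others, and the difference between cell types was not tested. Monocyte-like cells were those with Ly6c2 and Ccr2 and little C1q, with 121 control and 170 anti-VEGF cells. The interferon list had a median of 0.17 in macrophages, with 16 of 19 above 0, and 0.25 in monocyte-like cells, with 13 of 19 above 0, beside 1.10 in the shallow neutrophils. Over all measured genes the medians were -0.03 in macrophages, with 32.4% above 0, and -0.02 in monocyte-like cells, with 47.6% above 0, beside 49.7% in the shallow neutrophils. Rsad2 was 1.78-fold (1.69 to 1.87) in macrophages and 1.26-fold (1.05 to 1.51) in monocyte-like cells. Gbp2b was 1.61-fold (1.55 to 1.67) in macrophages and 4.02-fold (3.34 to 4.86) in monocyte-like cells. Ccl4 was 0.936-fold (0.923 to 0.950) and 0.940-fold (0.840 to 1.05), and Cxcl3 1.90-fold (1.75 to 2.06) and 4.87-fold (3.73 to 6.45).

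The hypoxia list was higher in all of them, with medians of 0.44 in macrophages, 0.66 in monocyte-like cells and 0.64 in shallow neutrophils. Bnip3 was 2.32-fold (2.27 to 2.37) in macrophages and 2.06-fold (1.75 to 2.43) in monocyte-like cells, beside 2.14-fold in shallow neutrophils. Il1r2 was 1.25-fold (1.11 to 1.40) in macrophages and 0.544-fold (0.390 to 0.753) in monocyte-like cells, beside 0.551-fold.

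**Figure D5:**
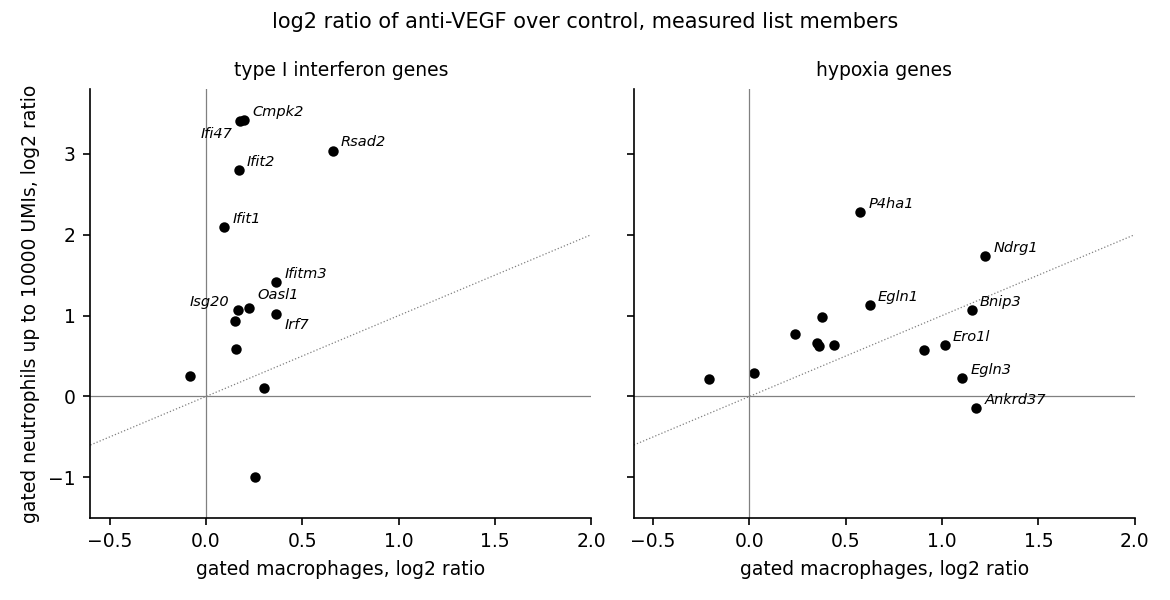
Log2 ratio of anti-VEGF to control CPM of the interferon and hypoxia genes in macrophages (x axis) and in shallow neutrophils (y axis), with the dotted line where both are equal. Most interferon genes lie above the line (list medians 0.17 and 1.10), and hypoxia genes lie on both sides of it (0.44 and 0.64). The pseudocount of 10 CPM draws ratios of genes with low CPM in macrophages towards 0, so the axes are not equal measures.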

How the data were processed

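Deposited values were raw UMI counts per gene and barcode, with cells already called, made by the authors with Cell Ranger 3.0.2 and mm10, per the submitters' processing notes. The file headers give software version 3.1.0. Read filters and cell-calling settings are not given in the sources used here. UMIs were summed per library over gated cells and scaled to CPM with Python 3.11.15, numpy 2.4.6, scipy 1.17.1 and pandas 2.3.3, and figures were drawn with matplotlib 3.10.9. Levels have exact Poisson, shares exact (Clopper-Pearson) binomial and ratios exact conditional binomial intervals at 95%. PCR copies were collapsed by UMI.

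The members and the 20 gene lists and 14 marker lists were chosen with earlier results of these data known. Symbols of 2 list genes were not matched to a single feature. Named genes were list members, markers and the 12 highest and 12 lowest log2 ratios among genes with at least 50 UMIs, detected in 10% of gated cells of a library, apart from ribosomal, mitochondrial, predicted, sex-linked (Xist, Y), antigen-receptor and haemoglobin genes. Alternatives numbered 22, of which 17 were planned, and TMM factors came from edgeR 4.0.16 in R 4.3.3. Log2 ratios of single genes and their ratio intervals were tested on simulated data first, and list medians were not. The simulation drew UMIs independently from sums over cells. It therefore cannot show how the intervals hold where the UMIs of a gene cluster in few cells. Cells were thinned with a fixed seed, to 500 UMIs as planned and to 1500 as added later. Results for some genes are not reported here.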

Additional observations from a re-analysis of the deposited data

How the results depend on the processing

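With 1 library per group, no call rests on a test, and the number of control neutrophils and their depth limit every value. No paired analysis was possible because each group has 1 library. The difference in share was positive under each of the 14 alternatives that give it, and the interferon list median stayed between 0.70 and 1.59 over the 22. Over 61 named genes and 20 settings, 816 of 1220 values stayed close and 109 had the other sign, 29 of them for genes past 2-fold over all gated cells, and the cause was not tested. All numbers below for lists and genes are log2 ratios.

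With at least 4 of 6 gate genes the share difference was 2.134 points and the chemokine median 0.5187. With at least 2 it was 3.4, with 99 genes at least 2-fold higher and 30 lower, identity median 0.6222, receptors 0.4546, immediate early 0.02299 and Tmem248 0.108. With C1q at 0 it was 1.344, with 38 lower, hypoxia 1.196, Rcc2 1.605 and Prmt1 1.896, and with C1q below 0.5% it was 3.113, with 40 lower. Without cells above 10000 UMIs, 103 were higher and 32 lower, and Ccl2 was at -0.2155, Rcc2 1.109, Sgk1 0.3367 and Prmt1 1.729.

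TMM gave 25 lower and 0.1277 for all genes. Equal weight per cell gave 116 lower, a pseudocount of 1 CPM 109 lower, a minimum of 20 UMIs 453 higher and 147 lower, and of 100 UMIs 76 and 33. Thinning to 500 UMIs gave 33 and 8, NADPH oxidase 0.1859, heat-shock 0.4749, Rcc2 1.411 and Sgk1 0.343. Subtracting macrophage RNA gave primary granule 1.663 and autophagy and lysosome 1.043.

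The remaining settings were chosen after seeing the data. Without cells above 10000 UMIs, equal weight gave 91 and 32, Ccl2 -0.08149, Rcc2 1.225, Sgk1 0.3965 and Prmt1 1.218. TMM there gave 4 lower, identity 0.2973, chemokines 0.6729, MHC class I 0.82, immediate early 0.1509, heat-shock 0.6244, all genes 0.2621, Rcc2 1.186, Sgk1 0.5999 and Prmt1 1.828. Subtracting macrophage RNA there gave 98 and 37, Arg1 -0.7605, Rcc2 0.7222, Sgk1 0.3851 and Prmt1 1.372. Without cells with at least 10 macrophage and osteoclast-like UMIs, chemokines were at 0.5782, Arg1 -0.2066, Ccl2 -0.3797, Rcc2 1.217, Sgk1 0.02589 and Prmt1 1.434. Without cells above 5000 UMIs, 65 were higher and 28 lower, with Ccl2 -0.3116, Rcc2 1.205, Sgk1 0.3138 and Prmt1 0.9029.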
